A study of Mus musculus with 6 samples.

Results

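The immune-cell miRNAs examined here are miR-142, miR-223, miR-150, miR-155, miR-146a and miR-146b, in small RNA sequencing of cultured embryonic mouse cardiomyocytes (EMCMs). Their entries were taken by name, as every listed strand of a miRNA with one of these numbers (for miR-146 with any letter), and 10 of the 689 listed miRNAs met that rule. These were both arms of miR-142, the main and the asterisked strand of miR-146b, miR-155 and miR-223, and a single strand of miR-146a and of miR-150. The cells came from wild-type Swiss Webster embryos at E16.5 according to the sample labels, whereas the methods name CD1 mice. They were grown on flexible plates coated with collagen and either kept static for 24 hours (3 samples) or exposed for 24 hours to a cyclic stretch of 16% at 1 Hz (3 samples). The labels thus give 6 samples in all, and the methods name a larger number. No allele or drug separated the groups, and nothing in the labels says whether samples of a group came from separate litters.

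The values are 1 mean abundance per miRNA over both groups, which the authors deposited on a log2 scale after their own normalization. Here each was converted into reads per 1000000 miRNA reads (RPM), so that 1 RPM stands for a mean abundance of 1 part in 1000000. These are not counts of reads, since how samples were normalized and averaged is not given. Shares of reads below are meant on this scale. No values of individual libraries entered the analysis. The depth of each library and the spread between replicates are therefore unknown, the values carry no error, and no test between miRNAs or between stretched and static cultures was possible. The authors' own comparison of the groups was not used.

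A miRNA is cut from a hairpin precursor whose 2 arms can each yield a mature strand, and bases 2 to 8 of that strand, the seed, guide it to its target mRNAs. miR-142 is made throughout the blood cell lineages, miR-223 mainly in myeloid cells such as neutrophils, and miR-150 in mature B and T lymphocytes. miR-146a, miR-146b and miR-155 are induced by NF-κB and Toll-like receptor signaling. They are found in activated leukocytes but also in other cells, among them endothelial cells and fibroblasts. miR-146a and miR-146b restrain Toll-like receptor signaling through Irak1 and Traf6, while miR-155 promotes inflammatory responses.

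The mature sequences are shown because the seed decides which of these miRNAs can share targets, and because near-identical sequences decide which values can be told apart. Sequences were matched for 9 of the 10 strands in the RefSeq table used (GRCm38.p6), and not for miR-150. The 2 strands with a common seed, in capitals, were
miR-146a: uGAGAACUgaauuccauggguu
miR-146b: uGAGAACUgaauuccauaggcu

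The other strands each had a seed of their own, also in capitals. They were
miR-142-5p: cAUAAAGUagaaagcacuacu
miR-142-3p: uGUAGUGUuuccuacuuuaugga
miR-155: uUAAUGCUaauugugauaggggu
miR-155*: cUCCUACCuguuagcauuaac
miR-223: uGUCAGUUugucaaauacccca
miR-223*: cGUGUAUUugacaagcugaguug
miR-146b*: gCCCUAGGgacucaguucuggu

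The 9 strands had 21 to 23 bases and 8 seeds between them. miR-146a and miR-146b had the same base at 20 of 22 positions. Counted from 1 at the 5′ end, miR-146b differed from miR-146a by G18A and U21C, so their first 17 bases were identical. The authors kept tags of 18 to 30 nt, and an 18 nt tag that begins at base 1 holds the first of the differing positions. No other mouse miRNA in the RefSeq table used had the seed GAGAACU. miR-142-5p also had a close relative, miR-3969, whose 20 bases read
miR-3969: cCCUAAAGuagaaaucacua

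From its base 2 on, miR-3969 matched miR-142-5p at 17 of 19 positions, with the differences A2C and G14U counted from base 1 of miR-142-5p. It spans 87595963 to 87595982 on the minus strand of chromosome 5 (GRCm38.p6), and its level was not analysed here. For the remaining strands, the closest other mouse miRNA in that RefSeq table had at least 7 mismatches. How the authors treated tags that fit more than 1 miRNA is not given in the sources used here.

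The 6 hairpins lie at separate places in the genome (GRCm38). Mir142, on the plus strand of chromosome 11, spans 87756864 to 87756927 within an intron of the noncoding host gene Mir142hg, and the annotated hairpin Mir142b overlaps it on the minus strand. The gene of miR-146a, annotated as Mir146, spans 43374397 to 43374461 on the minus strand of the same chromosome and overlaps no other annotated gene. Mir146b spans 46342762 to 46342870 of chromosome 19 and sits in an intron of Mfsd13a. Mir155 spans 84714140 to 84714204 of chromosome 16 and is part of an exon of the noncoding gene Mir155hg. Mir223 spans 96242817 to 96242926 of chromosome X and is part of an exon of the noncoding transcript F630028O10Rik. Mir150 spans 45121757 to 45121821 of chromosome 7, in no other annotated gene.

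Together the 10 strands made up 302.8 RPM, or 0.0303% of the miRNA reads, which on this scale corresponds to 1 miRNA read in 3302. miR-22, the most abundant miRNA of the cultures, had 204751 RPM, 676 times the sum of the 10 strands. The 4 highest strands, miR-146a, miR-142-5p, miR-146b and miR-155, held 96.8% of the reads of the group, and the other 6 strands added up to 9.75 RPM. miR-146a and miR-146b, which share a seed, held 63.1% of the group's reads. The range within the group was 625-fold, or 9.29 on the log2 scale, from miR-146a to miR-223*.

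**Figure D1:**
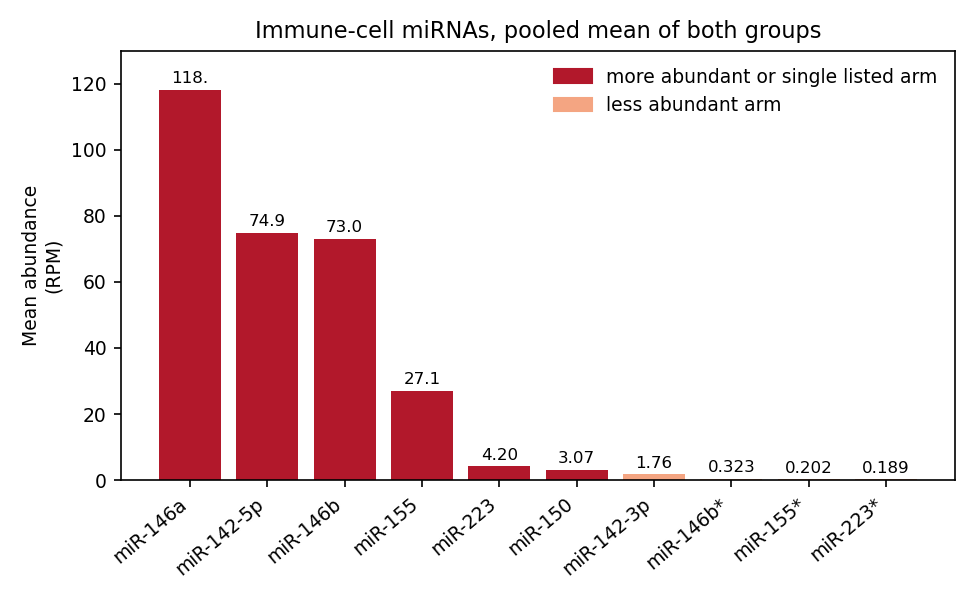
Mean abundance of the 10 immune-cell miRNA strands in RPM (linear axis from 0), as 1 pooled mean over both groups and so without error bars. Light bars are the less abundant strand of a hairpin, dark bars the more abundant or the only one listed. miR-146a stands highest at 118, miR-142-5p and miR-146b are near each other at 74.9 and 73.0, and the 6 strands to the right of miR-155 are all under 5.

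miR-146a was the most abundant of these miRNAs, with 118 RPM, rank 142 of 689. Directly above it stood miR-208a-5p, a strand of the heart muscle miRNA miR-208a, with 119 RPM, and directly below it miR-433 with 108 RPM. miR-146b, its seed partner, had 73.0 RPM and rank 168, between miR-450b-5p at 73.0 and miR-130b* at 72.8 RPM. The opposite strand miR-146b* had 0.323 RPM, rank 529, between miR-452-5p and miR-3473d. No second strand of miR-146a was analysed here. Summed over their 3 entries, the miR-146 hairpins reached 191.5 RPM, the largest sum among the numbers examined.

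miR-155, which is made from the transcript of Mir155hg in activated lymphocytes and macrophages, had 27.1 RPM and rank 229. It stood between miR-96 at 27.3 and miR-154 at 26.6 RPM. It was lower than miR-146b by 1.43 on the log2 scale, a ratio of 2.70, and higher than miR-223 by 2.69, a ratio of 6.44. Its other strand, miR-155*, had 0.202 RPM, rank 569, between miR-1306-3p and miR-10a*.

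Among the miRNAs that are mainly made by blood cells, miR-142-5p was the highest. It had 74.9 RPM and rank 165, between miR-1193-3p at 75.2 and miR-674* at 74.4 RPM. The level of miR-142-5p exceeded that of miR-146b by 0.04 on the log2 scale, and whether such a step is larger than the spread between samples is unknown. miR-142-3p had 1.76 RPM and rank 406, between miR-1843-3p and miR-1191. The myeloid miRNA miR-223 had 4.20 RPM and rank 345, with 344 miRNAs above it and 344 below, so that it was the median of the 689 listed miRNAs. Its neighbours were the epithelial miR-203 at 4.23 and miR-219-3p* at 4.19 RPM. miR-223* had 0.189 RPM and rank 573, between miR-1298 and miR-701, the lowest place in the group. The lymphocyte miRNA miR-150 had 3.07 RPM and rank 365, between miR-16-2* at 3.18 and miR-340-3p at 3.06 RPM.

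Grouped by what is known of their sources, a grouping made after the values were seen, the 5 strands of miR-142, miR-223 and miR-150 summed to 84.1 RPM and held 27.8% of the reads of the 10 strands. The 5 strands of miR-146a, miR-146b and miR-155 summed to 219 RPM and held 72.2%. miR-142-5p alone was 17.8 times as abundant as miR-223. The other arm of its hairpin, miR-142-3p, was below miR-223, with 1.76 against 4.20 RPM. In pooled RNA of a whole culture, fewer cells of a type and less of a miRNA per cell cannot be told apart.

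Among the 689 listed miRNAs, the group ran from rank 142 to rank 573. miR-146a, miR-142-5p and miR-146b were above the upper quartile of 67.0 RPM, and miR-146b*, miR-155* and miR-223* were below the lower quartile of 0.377 RPM. None of the 10 strands was among the 100 most abundant. The median of the 10 strands was 3.59 RPM, beside 4.20 RPM over all 689. No strand of the group was among the 25 miRNAs whose deposited values lie under -30 on the log2 scale, apart from all others. What sets these 25 apart is not given, so their place at the bottom of the ranking is uncertain. The lowest value outside those 25 was 0.0415 RPM, and miR-223* was 4.55 times as high.

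**Figure D2:**
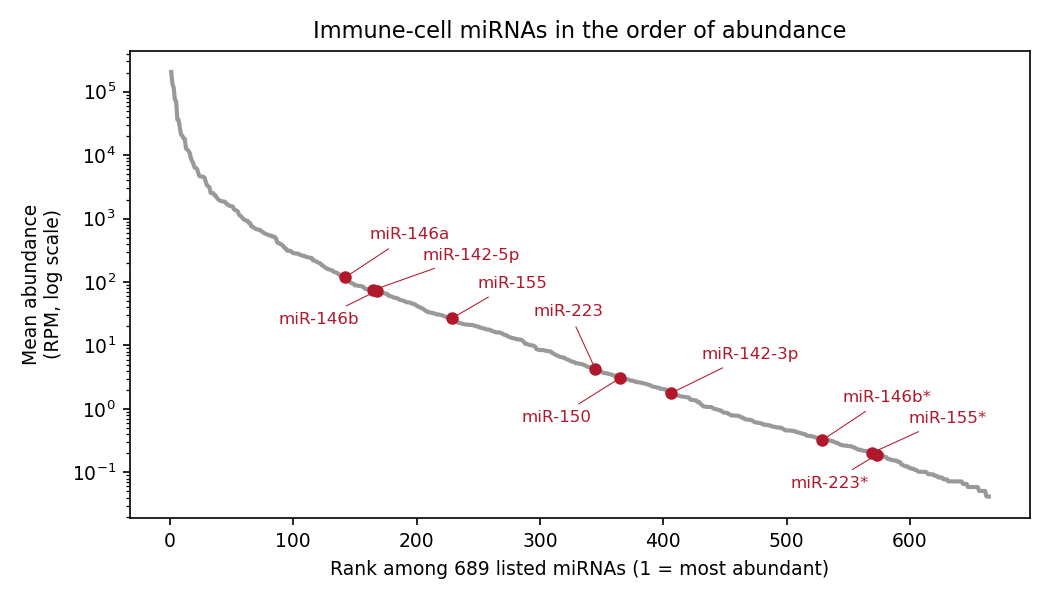
Mean abundance (RPM, log scale) against rank for the listed miRNAs (grey line, without the 25 miRNAs under the gap in the values), with the 10 immune-cell miRNA strands as red points. The points run from rank 142 for miR-146a to rank 573 for miR-223*, with miR-223 at the median rank of 345.

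Both arms were listed for miR-142, miR-146b, miR-155 and miR-223, and these hairpins are printed to show which arm was the abundant one. The mature strands are in capitals, the 5′ arm first.
Mir142: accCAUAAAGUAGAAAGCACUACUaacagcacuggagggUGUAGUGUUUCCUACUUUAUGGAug
Mir146b: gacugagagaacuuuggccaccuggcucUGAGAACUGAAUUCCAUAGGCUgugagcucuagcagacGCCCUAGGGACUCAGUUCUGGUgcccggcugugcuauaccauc
Mir155: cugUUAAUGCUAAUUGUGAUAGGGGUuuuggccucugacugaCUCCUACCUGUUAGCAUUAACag
Mir223: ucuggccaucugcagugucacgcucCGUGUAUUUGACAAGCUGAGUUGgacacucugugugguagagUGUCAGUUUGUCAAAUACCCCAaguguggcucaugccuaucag

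By the deposited values, the abundant strand came from the 5′ arm in Mir142, Mir146b and Mir155 and from the 3′ arm in Mir223. The 2 strands of a hairpin differ in sequence, and bias between sequences in adapter ligation was not corrected. miR-146b exceeded miR-146b* by 7.82 on the log2 scale, a ratio of 226. The difference between miR-155 and miR-155* was 7.07, a ratio of 134. For miR-142 the 5p strand was higher than the 3p strand by 5.41, a ratio of 42.6, and miR-142-3p held 2.29% of the reads of its hairpin. miR-223 exceeded miR-223* by 4.48, a ratio of 22.3. The ratios of miR-146b, miR-155 and miR-223 rest on asterisked strands of 0.323, 0.202 and 0.189 RPM. These are 4.55 to 7.78 times the lowest value outside the 25 miRNAs under the gap. With the depth unknown and no error on the values, how firm these ratios are is also unknown.

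These differences were set beside all 228 miRNAs with both strands listed and neither of them under the gap in the values. There the strands differed by a median of 3.91 on the log2 scale, with quartiles of 1.79 and 6.98. The 4 differences were thus above this pooled median, and those of miR-155 and miR-146b were above the upper quartile. The asterisked strand was the lower one in 145 of 160 miRNAs (90.6%) that carry the mark, among them miR-146b, miR-155 and miR-223. In 68 miRNAs the strands are instead named 5p and 3p, which does not rank them, and the 5p strand was the higher one in 28. miR-142 was among these 28, and 12 of the 68 had a larger difference in either direction. The median difference was 4.46 in the 160 miRNAs with the mark and 2.12 in the 68 without it. The difference of miR-223, 4.48, was thus near the median of its own kind.

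**Figure D3:**
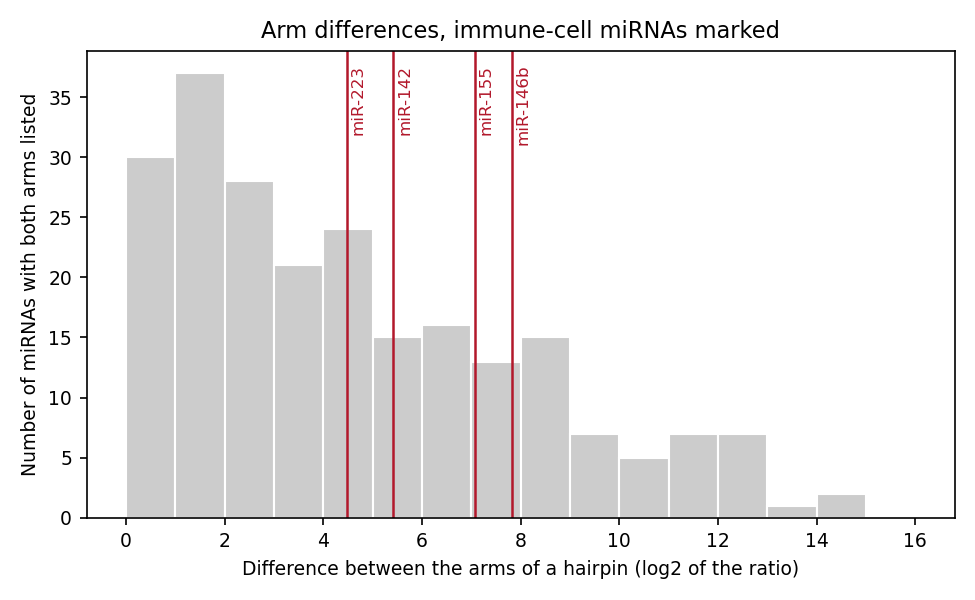
Number of miRNAs (y axis) by the difference between their strands on the log2 scale (x axis, bins of 1) for 228 miRNAs with both strands listed, with red lines at the immune-cell miRNAs. The lines stand at 4.48 for miR-223, 5.41 for miR-142, 7.07 for miR-155 and 7.82 for miR-146b, to the right of the pooled median of 3.91. Among miRNAs with an asterisked strand, such as miR-223, the median was 4.46.

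The levels were next set beside lists of miRNAs known from other cells. The cultures are labelled cardiomyocytes, and the heart muscle list (miR-1, miR-133, miR-206, miR-208 and miR-499) was listed in 15 entries summing to 15088 RPM, 49.8 times the immune-cell sum. It was led by miR-208b, encoded within a myosin heavy chain gene, with 11734 RPM, and miR-133a with 1860 RPM. miR-208a-3p had 746 and miR-1a 395 RPM, so miR-146a stood below each of these main strands. miR-499 had 214 RPM, while miR-133b had 10.6 RPM, below miR-155. Of the 15 entries, 6 were above miR-146a, and the median of the list was 4.06 RPM. miR-206, a skeletal muscle miRNA, had 2.06 RPM, which is between miR-150 and miR-142-3p.

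The lists for other cells of the heart also had sums above the immune-cell sum. The smooth muscle list (miR-143 and miR-145) was led by miR-143, the second most abundant miRNA at 133295 RPM. miR-145 had 694 RPM, and the list's sum was 443 times the immune-cell sum. The fibroblast list (miR-199 and miR-214) summed to 6222 RPM, or 4636 when miR-199b and miR-199a-3p, whose deposited values are identical, were counted once. Its lowest entry, miR-199b*, had 105 RPM and was below miR-146a but above miR-142-5p. Both strands of the endothelial miR-126 were above miR-146a, with 4642 RPM for miR-126-5p and 129 RPM for miR-126-3p.

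Blood cell and epithelial lists were lower. In the red cell list, miR-451 had 0.869, miR-144* 0.474 and miR-144 0.450 RPM, and they summed to 1.79 RPM. The immune-cell sum was 169 times as high, but 72.2% of it came from miR-146a, miR-146b and miR-155, which other cells also make. The strands of miR-142, miR-223 and miR-150 alone summed to 84.1 RPM, of which 74.9 RPM was miR-142-5p. miR-342-3p, a further leukocyte miRNA that other cells also make, had 137 RPM and was above miR-146a, and miR-342-5p had 0.542 RPM. The epithelial list held 12 entries summing to 51.1 RPM, led by miR-429 at 12.7 RPM, which is lower than miR-155 and higher than miR-223.

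Other miRNAs that respond to Toll-like receptors or NF-κB, from a list of miR-9, miR-21, miR-132 and miR-147, summed to 27440 RPM. Nearly all of this was miR-21, which many stromal cells make in quantity, with 27114 RPM. Its opposite strand, miR-21*, had 218 RPM, above miR-146a. The 5 entries of miR-9, miR-132 and miR-147 summed to 108.5 RPM, less than miR-146a alone. miR-132 had 88.7 RPM, between miR-146a and miR-142-5p, and miR-9 had 18.1 RPM, below miR-155. miR-147, which is induced in stimulated macrophages, had 1.07 RPM, below miR-142-3p.

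**Figure D4:**
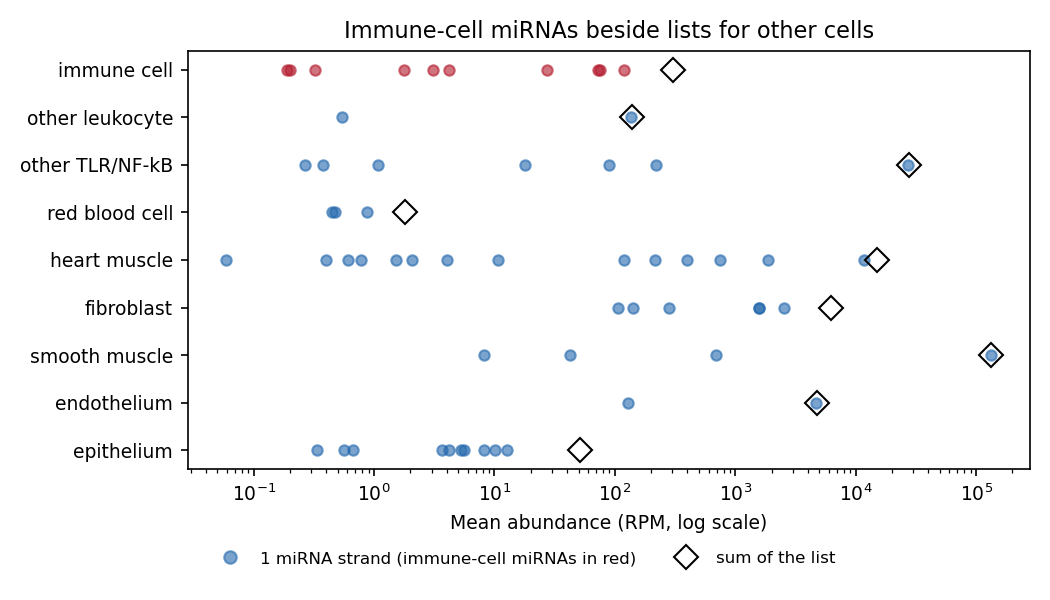
Mean abundance (RPM, log scale) of each strand (points) and the sum of each list (diamonds) for the immune-cell miRNAs in red and lists for other cells in blue. The 3 strands under the gap in the values, miR-1a-2*, miR-203* and miR-205*, are left out of the plot. The immune-cell sum of 302.8 lies below those of heart muscle, fibroblast, smooth muscle and endothelium, and above those of red blood cells and epithelium.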

How the data were processed

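Total RNA of EMCMs was isolated on RNeasy columns and its small RNA sequenced by the authors after TruSeq Small RNA library preparation. Per the methods, the authors filtered and trimmed the reads, kept sequences of 18 to 30 nt, aligned these by Bowtie2, summed the hits of each miRNA and used edgeR, while the submitters' processing notes deposited with the samples name Bowtie2 and DESeq. The genome build, the normalization, any filter, the treatment of tags that fit several miRNAs and the way samples were averaged are not given in the sources used here.

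One table of 689 miRNAs was used. The authors deposited a mean abundance for each as a log2 value. The base follows from the values, since 2 to the power of them sums to 0.995, against 0.00756 for base 10 and 0.302 for base e. A further 4 columns hold the authors' comparison of stretched with static cultures (fold changes on a log2 and a signed scale, with P values and FDRs) and were not used. No column of single samples was analysed, so depth is unknown and neither an analysis by replicate nor any test could be run. A count test had been planned only for the case that counts per sample were found.

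Abundance was multiplied out to reads per 1000000 miRNA reads (RPM). A miRNA read is counted whole and the strands are of like length, so no length correction was made. Adapter ligation differs between small RNA sequences, so levels of different miRNAs, and of the 2 strands of a hairpin, also carry that bias, which was not corrected. A value under -30 was taken as set apart. Strand pairs were matched by name (with and without an asterisk, or 5p and 3p). Mature and hairpin sequences came from RefSeq (GRCm38.p6), and positions and host genes from GENCODE M21 (GRCm38). Sequences were compared without gaps, with shifts of up to 3 bases and an overlap of at least 18 bases. The steps were tested on simulated data. The members and lists were chosen with earlier results of these data known. Named are all members, their neighbours in rank, the most abundant miRNA, and from each list its highest and its defining miRNAs. miR-3969 and the miRNAs under other observations were named after their values or sequences were seen. Python 3.11.15, numpy 2.4.6, pandas 2.3.3 and matplotlib 3.10.9 were used.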

Additional observations from a re-analysis of the deposited data

How the results depend on the processing

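The summed share of the immune-cell miRNAs, 0.0303% of the miRNA reads, ranged from 0.0302% to 0.0383% over 5 alternatives. These were identical miRNAs counted once, miRNAs under the gap in the values left out, only strands without an asterisk, shares divided by their sum, and the most abundant miRNA left out of the total. The shares of the single strands lay between 1 and 1.27 times the values given, and the ranks between 0.764 and 1 times, so none moved by more than 1.5 times. This follows from the arithmetic. Leaving out other miRNAs does not change a strand's share and can only keep or lower its rank number. A changed total multiplies every share by the same factor. The alternatives therefore could not show how firm the values of single strands are. Among the 478 strands without an asterisk, miR-146a ranked 127, miR-142-5p 142, miR-146b 144, miR-155 186, miR-223 268, miR-150 279 and miR-142-3p 310.

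No paired analysis was possible because each value is pooled over the samples of both groups, and for the same reason no sample was left out in turn. The depth is unknown, and it limits the strands under 1 RPM most.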

Other observations

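Among the 68 miRNAs whose strands are named 5p and 3p, 6 favoured the 5p strand by more than miR-142 did. They were miR-125a, miR-340, miR-1198, miR-3057, miR-324 and miR-666, with ratios from 47.5 for miR-666 to 200.4 for miR-125a, beside 42.6 for miR-142. The endothelial miR-126 came next below miR-142, with a ratio of 35.9 between miR-126-5p and miR-126-3p. The level of miR-340-3p, 3.06 RPM, was the one directly below miR-150, while miR-340-5p had 422 RPM.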
